A study of Mus musculus with 7 samples.

Results

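The genes described here encode the protein components of the mitochondrial ribosome, in cultured mouse muscle cells before and after differentiation. They were taken by name: every gene of the expression table whose symbol is Mrpl or Mrps followed by a number and at most 1 letter. The rule found 76 of the 37975 genes listed, and all 76 had been tested by the authors. By the assembled mammalian structure, 49 encode proteins of the large subunit and 26 of the small subunit. Mrps30 and Mrps18a count with the large subunit in spite of their symbols. The remaining gene, Mrps36, encodes a subunit of the oxoglutarate dehydrogenase complex and is not a ribosomal protein.

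Mitochondria keep a small genome, and the mRNAs it encodes are translated inside the organelle by ribosomes of their own. The ribosomal RNAs come from mitochondrial DNA, whereas every ribosomal protein is encoded in the nucleus, made in the cytosol and imported. Part of these proteins descend from bacterial ribosomal proteins and part have no bacterial counterpart. The products of mitochondrial translation are core subunits of the respiratory chain and of ATP synthase, on which oxidative muscle relies.

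The cells were primary myoblasts grown from satellite cells, the stem cells of skeletal muscle, which had been sorted from mice of 4 to 6 weeks. Of the 7 samples of the series 3 were used, each alone in its group: RNA of myoblasts in growth medium with an empty retroviral vector, RNA of myotubes with the same vector after 48 hours in medium with 5% horse serum, and MyoD chromatin immunoprecipitation (ChIP) from 2-day myotubes. The sources used here give neither the strain and sex of the mice nor whether animals were pooled. The label of the MyoD sample points to an earlier sample, and the protocol lists no antibody against MyoD. The sources state sequencing in duplicates and not how these were combined. With 1 value per gene and condition, no difference could be checked across replicates here. Each error given is a standard error (SE) recovered from the authors' test statistic, and whether it rests on duplicates is unknown.

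The libraries matched their labels by the myotube markers, whereas markers of satellite cells and myoblasts were mixed. All 6 myotube markers were called higher in myotubes in the authors' deposited table, and Pax7 and Myf5, markers of satellite cells and myoblasts, were called lower. Of the other 4 markers of the latter list, Des was called higher. Itga7 (120 FPKM in myoblasts and 185 in myotubes) and Cdh15 (78.0 and 132) had higher values in myotubes, neither called. Myod1 had a lower value, 895 and 293 FPKM, and was not called. Most markers of other cell types were low. The 5 endothelial markers together came to 5.45 FPKM in myoblasts and 2.90 in myotubes, and the 5 adipocyte markers to 15.6 and 5.73. Neural and Schwann cell markers summed to 8.60 and 10.1 FPKM and immune markers to 32.6 and 27.1. Most of the immune sum was Itgam, at 20.6 FPKM in myoblasts and 24.3 in myotubes, while Cd3e was at 0 in both. Fibroblast markers came to 132 and 32.6 FPKM, nearly all of it Fn1, which myoblasts also express, while Dpt and Lum were at 0 in both. Of these non-muscle markers, the authors' deposited table called Fn1, Thy1, Lpl, Pecam1, Cd68, Cd14 and Mbp lower in myotubes and none higher. Over all tested genes 17.3% were called lower. The part of these markers' changes in the results was not tested. In RNA of whole cultures, fewer cells of a type and less RNA per cell cannot be told apart.

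The mitochondrial ribosomal protein genes were expressed at moderate levels, and the levels stayed close between the conditions. Levels are FPKM, which scales fragments to transcript length and to library size, so that genes of different length can be set side by side. The median was 62.8 FPKM in myoblasts, with quartiles of 36.5 and 96.4, and 63.0 in myotubes, with quartiles of 39.9 and 105. Over all tested genes the median was 17.9 FPKM in myoblasts and 12.7 in myotubes. Of the 76 genes, 74 had a mean above the median of tested genes. Added up, their FPKM came to 6249 before and 6484 after differentiation, a ratio of 1.04. The 76 cytosolic ribosomal protein genes measured in both conditions, which serve as the nearest comparison, summed to 56699 and 42228 FPKM, a ratio of 0.745.

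Levels differed far more between the genes than between the conditions. The highest mean was 43.1 times the lowest. Mrps21, which encodes a small-subunit protein with a bacterial counterpart, stood highest with 314 FPKM in growth medium and 392 after differentiation. It was followed by Mrpl2, a protein of the large-subunit core, at 301 and 283 FPKM. Mrpl33, Mrpl17 and Mrps23 came next, with means of 280, 260 and 204 FPKM. At the low end stood Mrpl35 at 7.57 FPKM in growth medium and 8.81 after differentiation, and Mrpl1 at 12.4 and 10.8. Mrpl46 and Mrpl47 had means of 21.1 and 24.1 FPKM, and Mrpl44 of 25.01. The order of the 76 genes was similar in the conditions, with a Spearman coefficient of 0.913 across genes, which are not independent replicates. Mrpl2 and Mrpl33 lie in loci that the table shares with other tested genes, and so do Mrpl17, Mrpl44, Mrpl46 and Mrpl47. The sources used here do not say how reads of overlapping genes were divided.

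**Figure D1:**
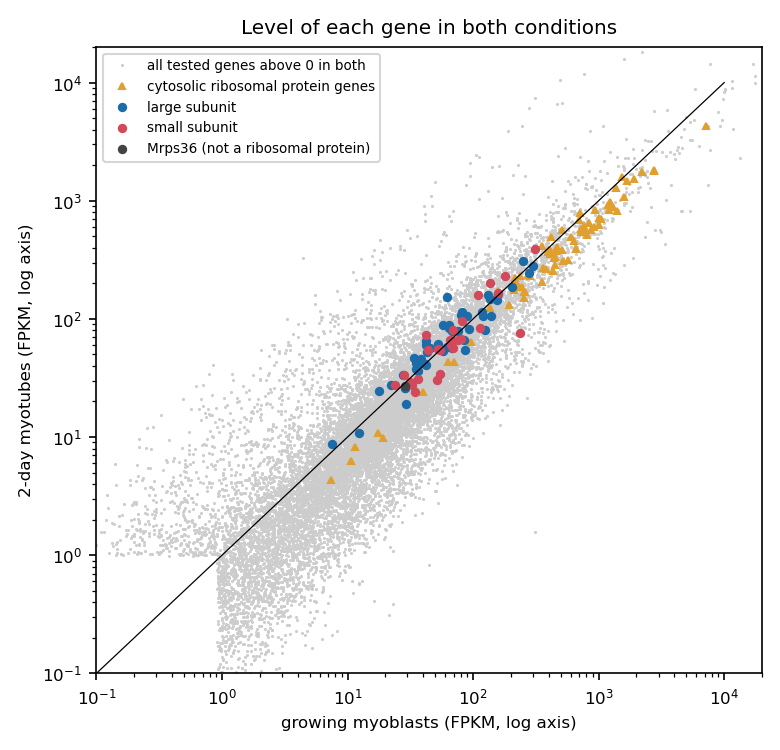
FPKM of each gene in growing myoblasts (x axis) and 2-day myotubes (y axis), both on log axes from 0.1, with 1 point per gene and the line of equal values. The large-subunit (blue) and small-subunit (red) genes lie along the line, Mrps6 (236 and 75.8 FPKM) is the red point farthest below it, and most cytosolic ribosomal protein genes (triangles) lie below it.

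None of the 76 genes was called changed. By the authors' Cuffdiff test at a q of 0.05, 0 were higher and 0 lower in myotubes, against 23.9% of the 15966 genes tested, 6.52% called higher and 17.3% lower. Among the 9837 tested genes with a mean in the FPKM range of the 76, 24.1% were called. At an unadjusted p under 0.05 there were 2, Mrps6 and Mrpl53, against 33.5% of all tested genes. By size alone, with no test, 4 genes were at least 1.5-fold higher and 6 at least 1.5-fold lower in myotubes, against 16.4% and 42.8% of the 15416 tested genes that had reads in each condition.

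The fold changes of the 76 genes centred near 0 and were more narrowly spread than those of all tested genes. In the authors' deposited table, 40 had a log2 fold change above 0 and 36 below, with a median of 0.05 and quartiles of -0.17 and 0.29. Over the same 15416 genes the median was -0.41, with quartiles of -1.15 and 0.24. On the log2(FPKM + 1) scale the medians were 0.04 for the 76 genes and -0.37 for the 15146 tested genes that averaged 1 FPKM or more. The log2 fold change was under 1.5-fold in either direction for 66 of the 76, or 86.8%, against 40.8% of the 15416. Among the 9660 of the latter in the FPKM range of the 76, the share was 46.8%. Their median was -0.32, with quartiles of -0.93 and 0.24. Cytosolic ribosomal protein genes had a median log2 fold change of -0.45, close to that of all genes. Their quartiles of -0.61 and -0.23 lay closer together than those of the mitochondrial ribosomal protein genes. Of these cytosolic genes, 7 of 76 were above 0 and 1 was called lower in the authors' deposited table. FPKM is relative to the whole library, so the median of 0.05 lies 0.46 above the centre of all genes. After centring on that median, which moves the whole-table calls to 10.2% higher and 10.3% lower, Mrpl53, Mrps34 and Mrps18b were called higher and 0 lower. Their centred log2 fold changes were 1.73, 1.22 and 0.97. Each of these 3 genes shares its locus with other tested genes.

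**Figure D2:**
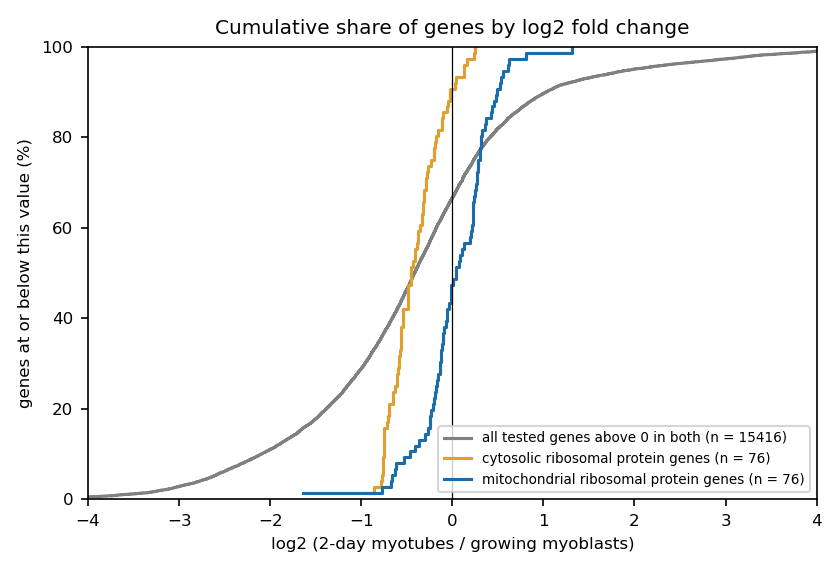
Cumulative share of genes (y axis, percent) at or below each log2 fold change (x axis, 2-day myotubes over growing myoblasts), for mitochondrial ribosomal, cytosolic ribosomal and all tested genes. The blue curve crosses the middle near 0.05, the curves of the other sets near -0.45 and -0.41, and the blue curve is much steeper than the grey one. The quartiles of the cytosolic genes (-0.61 and -0.23) lie closer together than those of the blue curve (-0.17 and 0.29).

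The errors set how much could have been called. The median SE of the 76 log2 fold changes was 0.51, from 0.28 at Mrpl37 to 0.71 at Mrps16, against 0.52 for tested genes in the same FPKM range. The largest p that the authors called was 0.0119. At the median SE a gene would have needed a change of 2.42-fold to reach it, and 1.63-fold at the smallest SE. The 95% interval of the log2 fold change lay wholly inside a change of 2-fold in either direction for 13 of the 76 genes (17.1%), against 9.70% of tested genes in that FPKM range. For the other genes a 2-fold change in some direction was inside the interval, so the absence of a call does not show that their levels were equal.

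**Figure D3:**
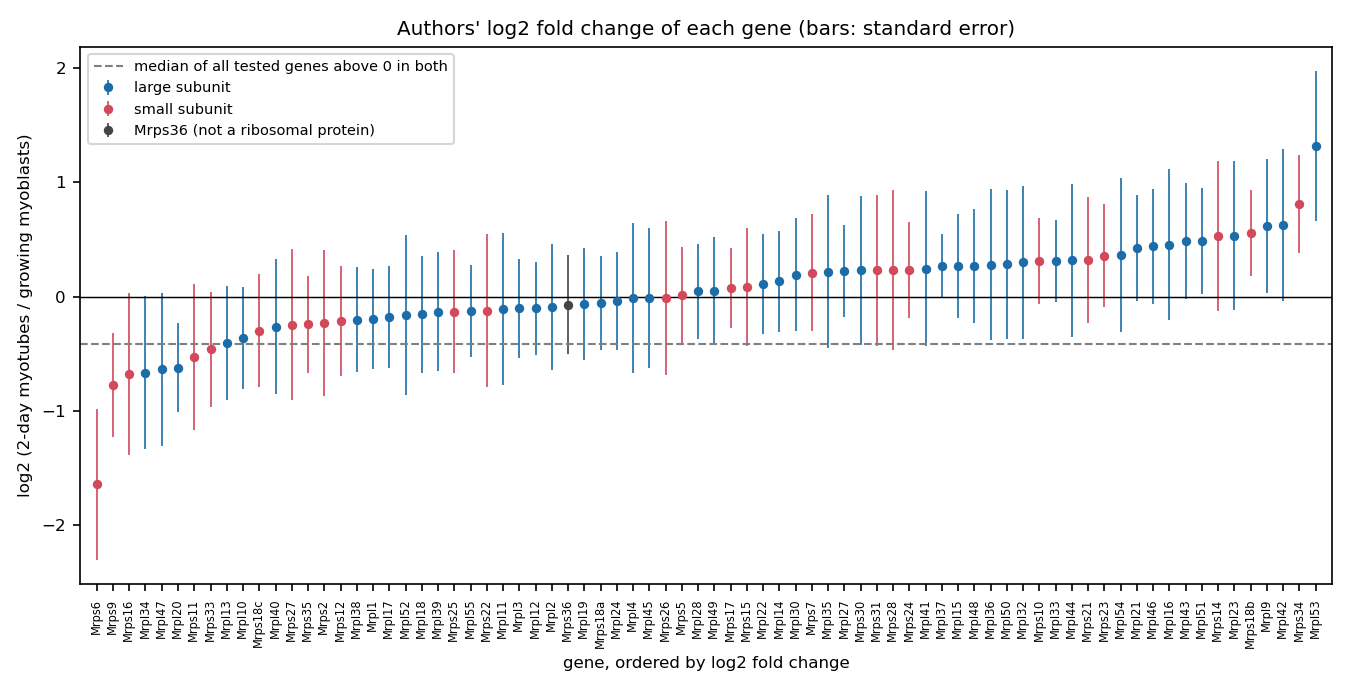
The authors' log2 fold change (y axis, 2-day myotubes over growing myoblasts) of each of the 76 genes, in order, with bars of 1 SE and colours by subunit. Values run from -1.64 at Mrps6 to 1.31 at Mrpl53, with 74 of 76 inside 1 log2 unit of 0, and the dashed line marks the median of all tested genes at -0.41.

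The 49 large-subunit genes had medians of 61.9 FPKM in myoblasts and 64.8 in myotubes, and 27 were higher in value and 22 lower. The 26 small-subunit genes had medians of 65.8 and 63.2 FPKM, with 13 higher and 13 lower in value. The median log2 ratios on the log2(FPKM + 1) scale were 0.11 and -0.00, a difference of 0.11. In loci of their own the medians were 0.19 for 29 large-subunit and -0.12 for 17 small-subunit genes, a difference of 0.31. Proteins are counted as mitochondria-specific where the current naming of ribosomal proteins marks them so, Mrps18a and Mrps18b included. Genes for proteins with a bacterial counterpart came to 4363 FPKM in all before and 4292 after differentiation, over 46 genes. This direction rests on Mrps6, without which the other 45 came to 4127 and 4216 FPKM. The 29 mitochondria-specific genes came to 1857 and 2165 FPKM, and their median log2 fold change was 0.23 against -0.00 for the 46. Within the large subunit, 13 of 19 mitochondria-specific genes were higher in value in myotubes, against 14 of 30 with a bacterial counterpart. In the small subunit the order was the other way, with 4 of 10 and 9 of 16 higher in value. None of these genes passed the test, and the differences between these groups were not tested.

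In the stalk of the large subunit, which recruits translation factors, the levels of the conditions lay within 1 SE of each other. Mrpl12, the stalk protein, which in human cells also binds the mitochondrial RNA polymerase, was at 154 FPKM in growth medium and 144 after differentiation (log2 -0.10, SE 0.41, q = 0.900, from the authors' deposited table). Mrpl10, which anchors the stalk, was at 84.9 and 65.9 FPKM (log2 -0.36, SE 0.45, q = 0.626, from the authors' deposited table). Mrpl11, at the base of the stalk, was at 57.9 and 53.7 FPKM. All 3 had lower values in myotubes, and all 3 turn above 0 when centred on the median of all genes. Mrpl45, which helps to hold the ribosome at the inner membrane near the exit of the nascent chain, was at 41.6 and 41.2 FPKM (log2 -0.01, SE 0.61, from the authors' deposited table). Mrpl44, which carries a fold of the RNase III family, was at 22.3 and 27.7 FPKM (log2 0.32, SE 0.67, from the authors' deposited table).

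Mrps18a, Mrps18b and Mrps18c are paralogs related to the same bacterial protein, S18, whose place in the ribosome Mrps18c takes. Mrps18a, of the large subunit, was at 67.5 FPKM in growth medium and 64.8 after differentiation (log2 -0.06, SE 0.41, from the authors' deposited table). Mrps18b, of the small subunit, was at 138 and 202 FPKM (log2 0.56, SE 0.37, q = 0.305, from the authors' deposited table). Mrps18c, also of the small subunit, was at 69.2 and 56.3 FPKM (log2 -0.30, SE 0.50, q = 0.738, from the authors' deposited table). Mrps18b was the highest of the 3 in each condition, and it alone of the 3 had a higher value in myotubes, although after centring on all genes Mrps18a and Mrps18c lie above 0 too. Mrps30, the other large-subunit protein with a small-subunit symbol, was at 36.4 and 42.6 FPKM (log2 0.23, SE 0.65, from the authors' deposited table). Mrps36 was at 28.6 and 27.2 FPKM (log2 -0.07, SE 0.43, from the authors' deposited table).

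The lowest fold change belonged to Mrps6, which encodes a small-subunit protein with a bacterial counterpart (mm9 chr16:92058515-92112472). By the Cuffdiff test it missed the call narrowly. Centred on the median of all genes, its log2 fold change was -1.23, farther from a call. It stood at 236 FPKM in growth medium and 75.8 after differentiation (log2 -1.64, SE 0.66, Cuffdiff q = 0.0525, from the authors' deposited table). The table gives Mrps6 the same locus as Slc5a3, the sodium and myo-inositol cotransporter, at 19.2 and 2.41 FPKM (log2 -2.99, SE 0.70, q = 0.000249, from the authors' deposited table), which was called lower. A further gene of the locus, Gm16309, was called lower too, at 25.5 and 3.56 FPKM in the authors' deposited table. Whether reads of these genes enter the value of Mrps6 was not tested. By the authors' deposited table the next lowest were Mrps9 (52.0 and 30.4 FPKM, log2 -0.78, SE 0.45), Mrps16 (54.8 and 34.3 FPKM, log2 -0.68, SE 0.71), Mrpl34 (86.6 and 54.5 FPKM, log2 -0.67, SE 0.67) and Mrpl47 (29.3 and 18.9 FPKM, log2 -0.63, SE 0.67).

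The highest fold change was that of Mrpl53, a mitochondria-specific protein of the large subunit (mm9 chr6:83051611-83059933). It stood at 61.9 FPKM in growth medium and 154 after differentiation (log2 1.31, SE 0.66, Cuffdiff q = 0.138, from the authors' deposited table). Its locus also holds Ccdc142, at 1.83 and 1.37 FPKM, and Gm15605, at 2.63 and 5.35 FPKM, both far lower than Mrpl53. Mrps34, a mitochondria-specific protein of the small subunit, followed at 41.9 and 73.2 FPKM (log2 0.81, SE 0.43, q = 0.173, from the authors' deposited table). Mrpl42 was at 57.3 and 88.5 FPKM and Mrpl9, which has a bacterial counterpart, at 42.5 and 64.96 FPKM, with log2 fold changes of 0.63 (SE 0.66) and 0.61 (SE 0.59) in the authors' deposited table. Next came Mrps18b, described above. None of these passed the test.

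The values of neighbours in a shared locus did not always move in the same direction. By the table's coordinates, 29 of the 76 genes share a locus with another tested gene, and 11 of them have a neighbour that was called. Mrps11 and Mrpl46 are each other's only tested neighbour (mm9 chr7:85920122-85937875). Mrps11 was at 34.6 FPKM in growth medium and 23.9 after differentiation (log2 -0.53, SE 0.64) and Mrpl46 at 17.9 and 24.4 FPKM (log2 0.44, SE 0.50), both from the authors' deposited table. Eme1, a nuclease subunit gene in the locus of Mrpl27, fell from 14.3 to 1.28 FPKM by the authors' deposited table (log2 -3.48, SE 0.67). Mrpl27 was at 52.4 and 61.2 FPKM (log2 0.22, SE 0.40, from the authors' deposited table). The fold changes of Mrps11, Mrpl46 and Mrpl27 were each smaller than their SE, so their directions are uncertain. The median log2 fold change was 0.05 for the 29 genes in shared loci and 0.04 for the 47 in loci of their own.

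Further proteins of the mitochondrial ribosome carry other symbols. They are Dap3, Ptcd3, Chchd1, Aurkaip1, Ict1, Gadd45gip1 and Mrp63, and 0 of these 7 were called in the authors' deposited table. Their median log2 fold change there was -0.18, against 0.05 for the 76 genes, with 2 of 7 higher in value. They came to 579 FPKM in all before and 518 after differentiation. Dap3, a GTP-binding small-subunit protein, was at 130 FPKM in growth medium and 95.9 after differentiation, and Ict1, a peptidyl-tRNA hydrolase built into the large subunit, at 136 and 136. With them, and without Mrps36, the ribosome had 82 measured protein genes, 52 of the large and 30 of the small subunit, of which 0 were called.

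Other genes of mitochondrial gene expression were called lower in a few cases and higher in none in the authors' deposited table. Over all tested genes 17.3% were called lower and 6.52% higher. Of 14 translation factors 1 was called lower, Guf1, a homologue of bacterial elongation factor LepA, which fell from 14.4 to 4.62 FPKM (log2 -1.64, SE 0.39, q = 0.000336, from the authors' deposited table). Of 22 assembly and rRNA modification factors Gtpbp10, a GTPase of large-subunit assembly, fell from 17.3 to 7.04 FPKM (log2 -1.29, SE 0.43, q = 0.0160, from the authors' deposited table). Of 17 mitochondrial aminoacyl-tRNA synthetases 16 had a lower value in myotubes, as did 66.6% of the 15416 tested genes with reads in each condition. Among those called lower was Hars2, which charges the mitochondrial histidine tRNA and fell from 48.0 to 17.9 FPKM (log2 -1.43, SE 0.37, by the authors' deposited table). Of 14 genes of mitochondrial DNA maintenance and transcription Polg2, the accessory subunit of the mitochondrial DNA polymerase, was called lower, from 9.39 to 3.65 FPKM in the authors' deposited table. Guf1, Hars2 and Polg2 share their loci with other tested genes. The 24 protein import genes had 0 calls in the authors' deposited table and a median of 0.09.

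Among 10 nuclear regulators of mitochondrial genes the authors' deposited table called 3 lower and 0 higher, beside 17.3% and 6.52% of all tested genes. Gabpb1, the partner of the ETS factor GABPA, fell from 43.2 to 18.8 FPKM (log2 -1.20, SE 0.36, q = 0.00529, from the authors' deposited table). Pprc1, a coactivator of the PGC-1 family, fell from 62.8 to 33.9 FPKM and Myc from 55.3 to 24.9 in the authors' deposited table. Nrf1, the nuclear respiratory factor, was at 40.2 and 26.1 FPKM and Gabpa at 71.1 and 53.1, neither called. Esrra was at 87.0 and 89.8 FPKM. Pprc1, Nrf1, Gabpa and Esrra share their loci with other tested genes. On the log2(FPKM + 1) scale the median of these 10 genes was -0.71, beside 0.04 for the 76 ribosomal genes and -0.37 for all genes used. The medians of the translation factors, assembly factors, synthetases and DNA maintenance genes were -0.15, -0.08, -0.30 and -0.37.

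The mRNAs that mitochondrial ribosomes translate were measured as well, in a list added after the data were seen. All 13 had lower values in myotubes, and 0 were called in the authors' deposited table. Their median log2 ratio was -0.53, against -0.37 for all genes used. Each fold change was smaller than its own SE, which ran from 0.67 at mt-Nd4l to 1.75 at mt-Co1. Their FPKM summed to 69647 in myoblasts and 45185 in myotubes. All but mt-Co2, mt-Nd3 and mt-Cytb share their loci with other tested genes, so the 13 values may not be separate measurements. The 2 mitochondrial ribosomal RNAs, which polyadenylated RNA captures only in part, were at 271 and 377 FPKM for mt-Rnr1 and at 575 and 586 FPKM for mt-Rnr2.

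Over all peaks of the list, summits of MyoD, the muscle regulatory factor, lay near these genes about as often as near other genes. A gene counted as having a peak if its locus, or the 10 kb on either side, held a summit. This held for 32 of the 76 genes (42.1%, exact 95% interval 30.9 to 54.0), against 38.9% of the 15930 tested genes on chromosomes with peaks. For the 47 genes in loci of their own it was 16 (34.0%, interval 20.9 to 49.3), against 32.8% of 11095 tested genes in such loci. The 47 loci had a median length of 7813 bp and the 11095 a median of 17216 bp, and long loci have more room for a peak. With a summit inside the locus or within 1 kb, the count was 20 (26.3%) against 31.1%. Stricter peaks within 10 kb were fewer. At a false discovery rate of at most 5%, 1 of the 47 genes had one (2.13%, interval 0.0539 to 11.3), against 8.63%. With at least 20 tags it was 4 of the 47 (8.51%, interval 2.37 to 20.4), against 14.4%. In shared loci these shares were 20.7% against 18.8%, and 27.6% against 27.5%. Intervals cover counting error only. Of the 1040 genes called higher in myotubes, 609 (58.6%) had a peak within 10 kb.

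**Figure D4:**
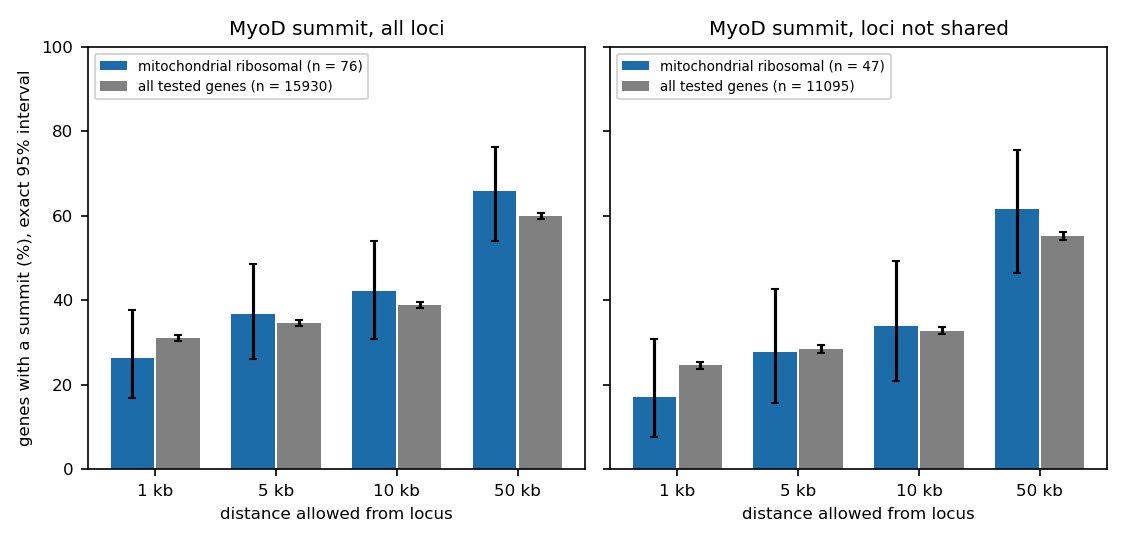
Share of genes (y axis, percent, with exact 95% intervals) with a MyoD summit in the locus or within 1, 5, 10 or 50 kb of it (x axis), over all loci (left) and loci of 1 tested gene (right). At 10 kb the shares are 42.1% and 38.9% on the left and 34.0% and 32.8% on the right, and the interval of the mitochondrial ribosomal genes holds the share of all tested genes at each distance.

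The peaks near the 76 genes were of about the median height of the list. There were 58, of which 39 had the summit inside the locus. They held 7 to 34 tags each, 13 at the median, and were enriched 14.4-fold at the median. Over all 10756 peaks the medians were 14 tags and 15.3, and the highest peak held 707 tags. These values are the authors' own for each peak. A false discovery rate of at most 5% was given to 7 of the 58 (12.1%), against 19.4% of all peaks. Mrpl2 had 9 peaks and Mrpl33 had 6, in shared loci whose other genes count the same peaks. The peak with the most tags, 34, lay inside the locus of Mrps28, a small-subunit gene, at mm9 chr3:8830644-8831227, and the next, with 32, beyond the locus of Mrpl49, at mm9 chr19:6060837-6061972. Mrps28 was at 28.4 and 33.4 FPKM and Mrpl49 at 76.3 and 78.7 FPKM. Each shares its locus with a gene called changed in the authors' deposited table. At Mrps28 this was Gm15466, lower in myotubes (148.5 and 27.7 FPKM), and at Mrpl49 it was Syvn1, higher (18.1 and 34.7 FPKM). Which gene these peaks belong to was not tested.

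The medians with and without a peak were close. The median log2 fold change was 0.03 for the 32 genes with a peak, from -0.67 to 0.63, and 0.08 for the 44 without, from -1.64 to 1.31. Both Mrps6 and Mrpl53 had no summit within 10 kb. The difference between these groups was not tested.

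Of the 21 peaks at loci of their own, 17 could be placed against a 5' end. At 4 genes a summit lay within 1 kb of the 5' end, taking the strand from the RefSeq annotation of GRCm38. At Mrps5, a small-subunit gene with a bacterial counterpart, the summit was 93 bp inside the 5' end, with 12 tags and 19.1-fold enrichment (mm9 chr2:127412763-127413240). At Mrpl40, a mitochondria-specific large-subunit gene, it was 216 bp inside, with 22 tags and 7.20-fold enrichment (mm9 chr16:18876258-18877053). At Mrps21 it lay 68 bp before the 5' end, with 13 tags and 20.5-fold enrichment (mm9 chr3:95675142-95675630). At Mrpl41, a mitochondria-specific large-subunit gene, it lay 404 bp before, with 24 tags and 7.20-fold enrichment (mm9 chr2:24830885-24831648). The false discovery rates of these 4 peaks ran from 8.34% to 23.1% by the authors' values. None of the 4 genes was called changed. Mrps5 was at 65.3 FPKM in growth medium and 65.8 after differentiation, and Mrpl40 at 67.8 and 56.6. Mrpl41 was at 38.4 and 45.5 FPKM. Mrps21, the highest gene of the group, had a log2 fold change of 0.32 (SE 0.55) in the authors' deposited table.

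The promoters of these 4 genes, and of the genes with the highest and lowest fold change, are shown here. Each runs from 250 bases before the RefSeq start to 30 after it, in GRCm38.p6 coordinates and 5' to 3' along the gene. Capitals mark matches to the motifs searched on both strands: CAGCTG, the E-box that MyoD prefers, CCGGAAG for ETS factors such as GABPA, AAGATGGCG for YY1, and, for NRF1, GCGCN followed directly by TGCGC.
Mrps5, chr2:127587176-127587455, plus strand: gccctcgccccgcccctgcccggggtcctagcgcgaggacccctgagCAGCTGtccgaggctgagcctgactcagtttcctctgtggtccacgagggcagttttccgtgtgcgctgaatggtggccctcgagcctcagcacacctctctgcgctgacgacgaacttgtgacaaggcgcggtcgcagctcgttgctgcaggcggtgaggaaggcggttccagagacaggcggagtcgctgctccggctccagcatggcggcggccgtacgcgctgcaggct
Mrpl40, chr16:18876608-18876887, minus strand: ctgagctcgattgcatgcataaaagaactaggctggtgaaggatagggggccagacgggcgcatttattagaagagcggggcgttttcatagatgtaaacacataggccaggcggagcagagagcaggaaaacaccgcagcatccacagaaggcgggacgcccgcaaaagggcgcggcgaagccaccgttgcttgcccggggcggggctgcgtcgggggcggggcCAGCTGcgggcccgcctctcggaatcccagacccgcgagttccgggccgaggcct
Mrps21, chr3:95871485-95871764, minus strand: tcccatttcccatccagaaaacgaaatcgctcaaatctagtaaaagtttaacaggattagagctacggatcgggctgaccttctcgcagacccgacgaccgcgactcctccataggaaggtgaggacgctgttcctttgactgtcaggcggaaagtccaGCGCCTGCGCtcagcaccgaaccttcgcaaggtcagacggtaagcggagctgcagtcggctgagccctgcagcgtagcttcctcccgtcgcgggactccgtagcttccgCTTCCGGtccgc
Mrpl41, chr2:24975069-24975348, minus strand: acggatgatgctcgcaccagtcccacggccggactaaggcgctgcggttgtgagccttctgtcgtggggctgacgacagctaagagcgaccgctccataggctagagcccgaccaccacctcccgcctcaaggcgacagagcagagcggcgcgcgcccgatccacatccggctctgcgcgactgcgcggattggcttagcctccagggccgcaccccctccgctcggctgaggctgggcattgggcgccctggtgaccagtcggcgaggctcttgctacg
Mrpl53, chr6:83108858-83109137, plus strand: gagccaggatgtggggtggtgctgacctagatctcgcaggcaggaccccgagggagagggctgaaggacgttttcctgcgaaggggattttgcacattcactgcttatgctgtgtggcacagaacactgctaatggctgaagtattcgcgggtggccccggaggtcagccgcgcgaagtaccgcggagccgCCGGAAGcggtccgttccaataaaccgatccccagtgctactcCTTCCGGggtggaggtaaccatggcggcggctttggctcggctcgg
Mrps6, chr16:92058086-92058365, plus strand: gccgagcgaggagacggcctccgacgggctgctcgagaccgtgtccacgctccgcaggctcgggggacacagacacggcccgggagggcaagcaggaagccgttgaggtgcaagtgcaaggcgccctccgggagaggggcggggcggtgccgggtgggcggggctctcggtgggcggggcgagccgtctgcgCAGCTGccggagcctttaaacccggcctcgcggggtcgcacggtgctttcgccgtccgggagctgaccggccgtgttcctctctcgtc

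The E-box CAGCTG was present in the Mrps5 promoter, 203 bases before the start, and in that of Mrpl40, 25 bases before it. The promoters of Mrps21 and Mrpl41, also near a summit, held none in this window. The 5' end of the locus is taken here as the RefSeq start, which was not checked between builds. By their distances from that end, the summits of Mrps5, Mrpl40 and Mrpl41 lie outside the window. That of Mrps21 lies inside it. A match or its absence therefore does not describe the sequence at the summits outside, and sequences under the peaks were not read. Mrps6 held it 58 bases before the start and had no summit within 10 kb. Mrpl53 held the ETS motif at 59 and at 16 bases before the start, once on each strand. Mrps21 held an NRF1 match 91 bases before the start and an ETS match just after it.

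Over the group, the ETS and YY1 motifs were present in a larger share of promoters than among tested genes, and the E-box of MyoD in a similar share. GABPA, YY1 and NRF1 are known regulators of nuclear genes for mitochondrial proteins. RefSeq promoters of 300 bases were found for 67 of the 76 genes, and those of Mrpl4, Mrpl13, Mrpl15, Mrpl19, Mrpl38, Mrpl54, Mrps28, Mrps34 and Mrps35 were not. A match to CCGGAAG was present in 24 of 67 (35.8%, exact 95% interval 24.5 to 48.5), against 19.8% of 8974 tested genes and 9.93% of all 27025 genes with a promoter. AAGATGGCG was present in 8 (11.9%, interval 5.30 to 22.2), against 3.48% and 1.64%. The NRF1 motif was present in 12 (17.9%, interval 9.61 to 29.2), against 11.6% and 5.19%. With A required in place of N it was present in 3 (4.48%, interval 0.933 to 12.5), against 2.40% and 1.07%. CAGCTG was present in 10 (14.9%, interval 7.40 to 25.7), against 18.2% and 18.3%, and the general E-box CANNTG, which includes it, in 42 (62.7%), against 67.2% and 74.99%. At least 1 of the NRF1, ETS and YY1 motifs was in 39 of 67 promoters (58.2%), against 31.1% of tested genes. The promoters of the 67 genes had a GC content of 58.9%, those of tested genes 60.7% and all promoters 53.8%. A match describes letters only and does not show binding.

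The median log2 fold change was 0.13 for the 39 genes with an NRF1, ETS or YY1 match and 0.03 for the 28 without, a difference that was not tested. Among the genes with an NRF1 match were Mrpl12, Mrpl17, Mrpl44 and Mrpl45. Mrps18a, Mrps18b and Mrps18c all had an ETS match, and Mrps18a also a YY1 match.

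**Figure D5:**
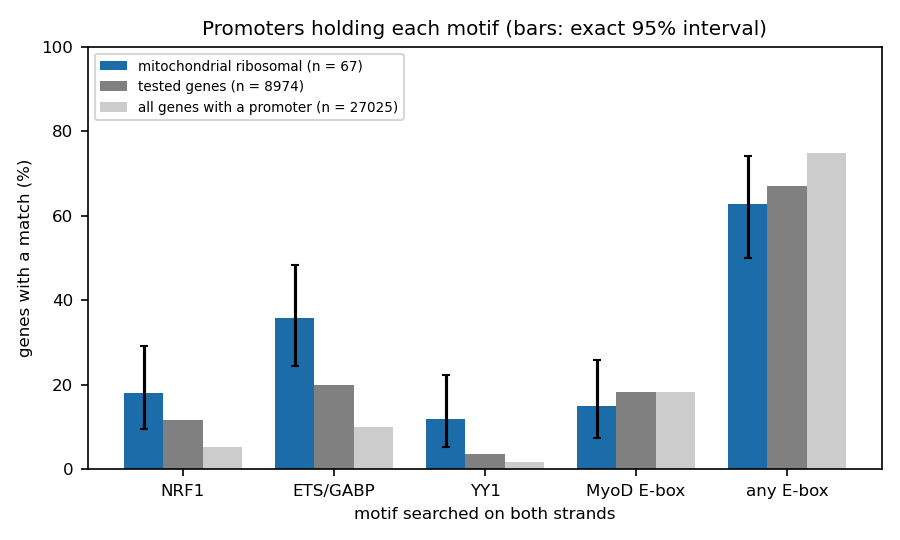
Share of genes (y axis, percent) whose 300-base promoter holds each motif on either strand (x axis), for mitochondrial ribosomal genes with exact 95% intervals, for tested genes and for all genes with a promoter. The ETS motif is at 35.8%, 19.8% and 9.93% and the MyoD E-box at 14.9%, 18.2% and 18.3% in these sets.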

How the data were processed

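The authors deposited gene expression as FPKM with log2 fold changes, p-values and q-values from Cuffdiff, in a pair of identical copies. The submitters' processing notes list CASAVA 1.7.0, MACS 1.3.7, Cuffdiff and mm9. The sources used here name no aligner, Cuffdiff version or normalization setting. They state sequencing in duplicates and not how these were combined. Absolute depth is unknown. Locus starts were shifted to count from 1. The peak list came from MACS with 8637045 ChIP tags and 9129012 control tags, per the file headers. In it the authors give tags per peak as counts, enrichment as a fold ratio, and the false discovery rate in percent. Its score, a multiple of the negative log10 p-value per the file headers, was not used.

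A call is the authors' mark of significance, at a q of 0.05. The SE is the size of the authors' deposited log2 fold change over their test statistic; p-values recomputed from that statistic differed from those deposited by at most 2.68e-06. Centred values used this SE with Benjamini-Hochberg adjustment over 15416 genes and were tested on simulated data. Medians used a pseudocount of 1 and a mean FPKM of at least 1. Promoters came from RefSeq (GRCm38.p6), and only strand was carried to mm9. Python 3.11.15, pandas 2.3.3 and scipy 1.17.1 were used. Histone samples were not analysed here, nor were protein sequences, so the planned comparison of the Mrps18 proteins was not made. Named genes were the 5 highest and lowest by level and by fold change, the 12 with the most peak tags, 9 set by role and called genes of the lists. Further genes, among them Mrpl11, Mrps11, Mrpl27, Mrpl37 and neighbours in shared loci, were chosen after their values were seen. Some genes of these lists are not reported here. The genes and lists were chosen with earlier results of these data known.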

Additional observations from a re-analysis of the deposited data

How the results depend on the processing

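No paired analysis was possible because each condition has 1 value, so no replicate could be left out either. The count of genes called higher, 0 as deposited, was 3 after centring on all genes and 3 after centring on the cytosolic ribosomal protein genes. It was 4 with a fold of at least 1.5 and no test. The count called lower, also 0, was 6 with that fold and stayed 0 after either centring. Both counts stayed 0 at a q of 0.01, with a mean FPKM of at least 10, in loci not shared, and with the ribosomal genes of other symbols, an alternative chosen after seeing the data. The median log2 ratio of 0.04 was 0.42 relative to the median of all genes, by construction, and ranged from 0.03 to 0.05 under the other alternatives. The difference between subunits, 0.11, was 0.31 in loci not shared and otherwise 0.08 to 0.12. The 32 genes with a summit within 10 kb were 20 at 1 kb, 28 at 5 kb and 50 at 50 kb. They were 34 by any base of the peak and 16 in loci not shared. At a false discovery rate of at most 5% there were 7 (9.21%), against 11.7% of all tested genes. With at least 20 tags there were 12 (15.8%), against 18.4%. The share at 50 kb was 65.8% against 60%, at 5 kb 36.8% against 34.6%, and by any base 44.7% against 39.1%. Of 33 named genes, 12 changed sign after centring, an alternative chosen after seeing the data, none of them called: Mrpl1 (0.221), Mrpl10 (0.0491), Mrpl12 (0.313), Mrpl17 (0.235), Mrpl2 (0.322), Mrpl38 (0.212), Mrpl40 (0.153), Mrpl45 (0.402), Mrps18a (0.355), Mrps18c (0.117), Mrps26 (0.402), Mrps36 (0.344), as centred log2 fold changes. Errors of 0.28 to 0.71 limit what a single gene can show.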

Other observations

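The table lists 4 tested pseudogenes named after genes of the group. How reads were divided between a pseudogene and its parent is not recorded in the sources used here. Mrpl23-ps1 was at 74.4 FPKM in growth medium and 107 after differentiation, and its parent Mrpl23 at 41.9 and 60.6. Mrpl48-ps was at 27.8 and 34.6 FPKM, and Mrpl48 at 34.9 and 42.0. Mrps36-ps1 was at 23.6 and 23.8 FPKM and Mrps36-ps2 at 48.3 and 46.3, beside 28.6 and 27.2 for Mrps36. The levels of Mrpl23, Mrpl48 and Mrps36 are uncertain for this reason. None of the 4 was called in the authors' deposited table.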
